A study of Mus with 12 samples.

Results

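Immunoglobulin heavy variable (Ighv) genes were read in whole blood of 12 BALB/c mice. The members were selected on their deposited counts alone: every gene whose name starts with Ighv and whose counts, summed over all 12 libraries, reached 48. No contrast between groups entered that rule. It kept 49 of the 95 Ighv genes in a table of 25247 genes, and these 49 hold 91.5% of all Ighv counts, 10212 against 943 in the 46 genes left out. Just inside the limit were Ighv11-2 with 56 counts and Ighv3-1 and Ighv14-4 with 57 each, and just outside were Ighv7-1 with 46 and Ighv1-22 with 43.

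The mice were females bought at 6 weeks of age, with blood taken on day 30. They fell into 4 groups with 3 libraries each, taken here as 1 library per mouse. The paper had 6 mice in each group, and how those sequenced were chosen is not stated. Solvent mice received the acetone and olive oil vehicle on the shaved back and right ear. DNCB mice were sensitised there with 1% 2,4-dinitrochlorobenzene, a contact allergen, and then challenged with 0.5%, which gives an atopic dermatitis-like skin disease. scMSC mice received the same DNCB course and, at each dose, 2e6 human umbilical cord mesenchymal stem cells in 100 µL under the skin beside the lesion. scivMSC mice received the DNCB course and the same dose split into 50 µL under the skin and 50 µL into the tail vein. The labels name no altered genotype, and no group received the injection fluid without cells.

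Heavy variable genes encode the part of the antibody heavy chain that, with its light chain partner, contacts antigen. Each B cell joins one of them to a diversity and a joining segment, so that each clone transcribes one productive heavy variable gene upstream of a constant gene such as Ighm (IgM) or Igha (IgA). Resting B cells carry this mRNA at low levels with membrane receptor genes such as Cd79a, whereas plasmablasts and plasma cells carry much more of it and also Jchain, which links IgA and IgM chains into polymers. In bulk blood, fewer cells of a type and less RNA per cell cannot be told apart.

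All 49 members lie on the minus strand of chromosome 12 within the Igh locus, from 113588267 to 115981134 in coordinates that match assembly GRCm38. Ighm lies at 113418558 to 113422730, and the members begin 166 kb from it with Ighv2-2 and end 2558 kb from it with Ighv1-84. The table annotates 46 as variable genes and 3, Ighv1-14, Ighv4-2 and Ighv3-2, as variable pseudogenes. Their listed lengths run from 429 to 572 bases. These genes form families of close paralogs, named by the number after Ighv, so reads may be shared between neighbours of a family, and the value of any one member is uncertain to that degree. BALB/c carries other Igh alleles than the C57BL/6 mouse of the reference, and the effect of this on the assignment of reads was not tested.

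The libraries held 52.2e6 to 65.1e6 counts. About 4 counts stand for 1 sequenced fragment, since 29.0% of all values from 1 to 12 are exactly 4. Haemoglobin took 78.4% to 89.0% of counts. The library of scivMSC replicate 2 stood apart, with 11806 genes detected at 4 counts or more and the lowest scaling factor of edgeR's trimmed mean method (TMM), 0.329, against 2.04 in Solvent replicate 1. Solvent blood held 217 to 398 CPM (counts for each 1e6 counts of the library) of the 10 neutrophil markers in sum, against 5735 to 8905 CPM in DNCB, 559 to 654 CPM in scMSC and 205 to 627 CPM in scivMSC. How far this change in cell make-up entered the values below was not tested.

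The summed Ighv level was high in Solvent and scMSC blood and low in DNCB and scivMSC blood. In Solvent the 49 members summed to 32.6, 35.5 and 14.8 CPM, a mean of 27.6 ± 11.2 (SD, n = 3). In DNCB they summed to 7.64, 7.49 and 2.35 CPM, a mean of 5.83 ± 3.01 (SD, n = 3). Every DNCB library was thus below every Solvent library, and the mean was 4.74-fold lower.

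In scMSC the sum was 27.6, 18.2 and 14.3 CPM, with a mean of 20.0 ± 6.84 (SD, n = 3), 3.44-fold above DNCB. The scMSC libraries lay above all DNCB libraries and overlapped the Solvent range. In scivMSC the sum was 4.50, 2.26 and 5.20 CPM, a mean of 3.99 ± 1.54 (SD, n = 3). That was 6.93-fold below Solvent and 5.03-fold below scMSC, with no overlap in either case, and inside the DNCB range except for replicate 2, the lowest of all 12. Its 2.26 CPM rest on 120 counts, with a 95% exact Poisson interval of 1.52 to 3.23 CPM when 4 counts are taken as 1 fragment. Such intervals cover counting error only.

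Without scivMSC replicate 2 the log2 ratio of scivMSC to Solvent was -2.51, in place of -2.79, and that of scivMSC to scMSC was -2.05, in place of -2.33. In TMM-scaled CPM the sum for scivMSC came to 5.90 to 10.9, above the 2.03 to 5.80 of DNCB, so that the order of these 2 groups turned with the scaling. On that scale Solvent was at 11.6 to 26.8 and scMSC at 14.0 to 25.9, both above every scivMSC library. A sum over chosen genes was given no test.

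**Figure D1:**
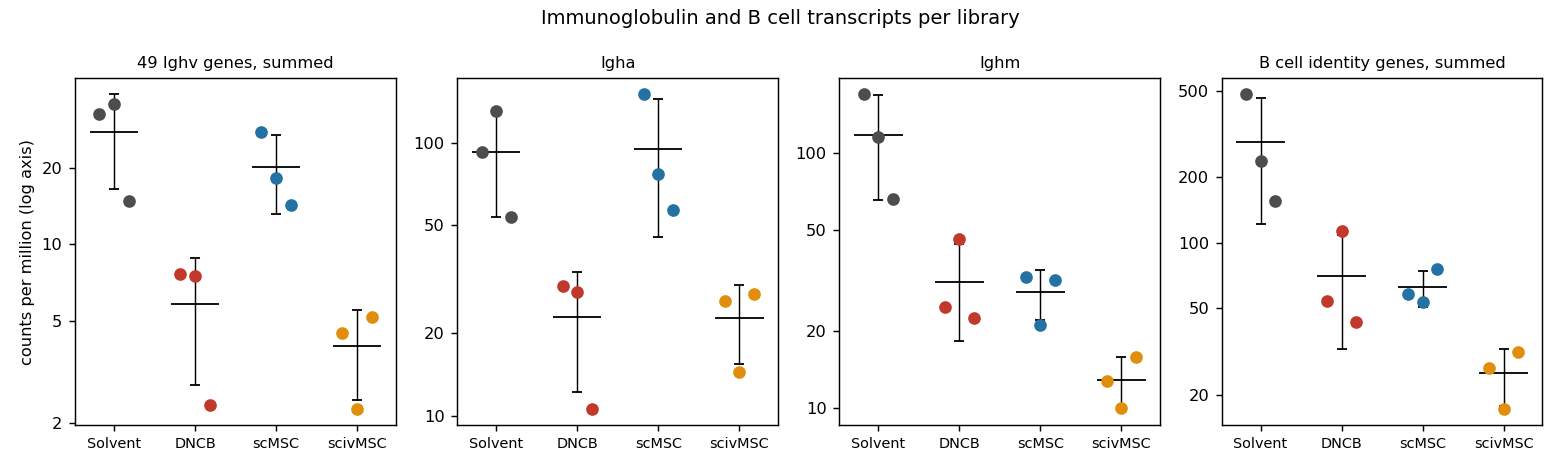
Summed Ighv level, Igha, Ighm and the sum of 15 B cell identity genes in each of the 12 libraries, in CPM on log axes; points are libraries, in the order of replicates 1 to 3, with the group mean (line) and SD (bar, n = 3). The 3 scMSC libraries sit near Solvent for Ighv and Igha and near DNCB for Ighm and the B cell genes.

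The antibody constant genes divided these groups in different ways. Igha stood at 92.3, 131 and 53.1 CPM in Solvent and at 29.8, 28.4 and 10.6 CPM in DNCB. It stood at 150, 77.0 and 56.4 CPM in scMSC and at 26.2, 14.4 and 27.9 CPM in scivMSC. This is the order seen for the Ighv sum, with Solvent and scMSC overlapping and both above every DNCB and scivMSC library.

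Ighm instead was at 171, 116 and 66.4 CPM in Solvent and at 25.0, 46.0 and 22.5 CPM in DNCB. In scMSC it was at 32.7, 21.2 and 31.7 CPM, overlapping the DNCB range, and in scivMSC at 12.7, 9.98 and 15.9 CPM. The scMSC libraries thus resembled Solvent for Igha and lay below every Solvent library for Ighm.

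The 15 B cell identity genes, among them Cd79a, Ms4a1 and Pax5, went with Ighm. They summed to 481, 238 and 156 CPM in Solvent, 53.6, 113 and 43.4 CPM in DNCB, 57.8, 53.2 and 75.9 CPM in scMSC, and 26.4, 17.2 and 31.6 CPM in scivMSC. For each 1000 counts of these genes, the libraries held 67.7, 149 and 95.2 Ighv counts in Solvent and 142, 66.0 and 54.3 in DNCB. The figure was 477, 342 and 189 in scMSC, above each of those 6 libraries, and 170, 132 and 165 in scivMSC. Relative to B cell identity genes, Ighv counts were therefore densest in scMSC, and Solvent and DNCB overlapped.

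The 10 plasma cell genes summed to 71.3 to 83.3 CPM in Solvent, 54.6 to 71.8 CPM in DNCB, 46.7 to 58.3 CPM in scMSC and 45.4 to 57.3 CPM in scivMSC. Much of that sum was Ell2, an elongation factor, with means of 42.7 CPM in Solvent, 42.5 in DNCB, 29.6 in scMSC and 41.4 in scivMSC. Without Ell2, a choice made after its values were seen, the sums were 21.8 to 40.5 CPM in Solvent, 14.3 to 26.8 in DNCB, 17.2 to 24.8 in scMSC and 3.41 to 14.3 in scivMSC, so that Solvent, DNCB and scMSC overlapped and scMSC was above every scivMSC library. The median log2 change over the 10 genes was -1.36 between DNCB and Solvent, 0.50 between scMSC and DNCB and -1.32 between scivMSC and scMSC, against -0.31, -0.48 and -0.95 over all genes tested, and edgeR called none of the 10 in these 3 comparisons. Of all genes tested, edgeR called 1.20% lower, 0.334% higher and 12.7% lower in these comparisons. With TMM scaling these medians were -1.21, 1.10 and -0.44, and 2, 0 and 1 of the genes were called, the last of them higher. Of all genes tested, TMM then gave 4.12% lower in the first comparison and 5.44% higher in the last. This list holds genes that other blood cells also express, such as Xbp1, a secretory stress factor, and Txndc5. Genes of V(D)J recombination and early B cells were near 0, with a sum of at most 1.15 CPM in any library and with Igll1 not in the table used here.

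Per 1000 Igha counts the Ighv genes stood at 271 to 353 in Solvent and 223 to 264 in DNCB. They stood at 184 to 254 in scMSC and 157 to 187 in scivMSC. Per 1000 Jchain counts they stood at 1106 to 1307, 721 to 1016, 733 to 956 and 522 to 692 in the same order. By both ratios every Solvent library was above every other library. This was for the 49 members, whose rule sums counts over all libraries and so favours genes high in Solvent. Over all 95 Ighv genes the Igha order did not hold. DNCB replicate 2 then had 8.55 CPM of Ighv to 28.4 CPM of Igha. That ratio was above that of Solvent replicate 2, with 38.0 CPM to 131 CPM. Per 1000 Igkc counts they stood at 269 to 292, 173 to 255, 255 to 324 and 180 to 199. Per 1000 Ighm counts they ran from 104 in DNCB to 859 in scMSC. Among 1086 genes outside the immunoglobulin loci with a mean FPKM (fragments per kilobase of transcript, scaled by the library total) of at least 5, Jchain had the per-library pattern most like the summed Ighv level, with a Pearson r of 0.97 on log2(CPM + 1). The T cell genes Thy1, Cd2 and Tcf7 (0.92, 0.88 and 0.87) and the chaperone Hsp90ab1 (0.87) came next, and Cd79a was at 0.75. These are descriptions over 12 libraries that share 4 treatments and their library totals. The 10 T cell markers summed to 184 to 309 CPM in Solvent, 64.5 to 96.6 CPM in DNCB, 94.6 to 135 CPM in scMSC and 23.5 to 64.6 CPM in scivMSC.

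The same antibody genes were tested singly in the fit over all 15851 genes that reached 48 summed counts. Between DNCB and Solvent, the log2 change of Igha was -2.01 (SE 0.461, edgeR, adjusted p = 0.0152), a fall. On the same scale Ighm fell by 1.92 (SE 0.375, adjusted p = 0.00494) and Ighg2b, an IgG heavy chain, by 2.31 (SE 0.462, adjusted p = 0.00567). Jchain fell by 1.71 (adjusted p = 0.0499), the kappa light chain Igkc by 1.86 (adjusted p = 0.0190) and Cd79a by 1.98 (adjusted p = 0.0158). Ighg1, the IgG1 heavy chain, had a change of 0.42 (adjusted p = 0.684), with 1.99 to 4.91 CPM in Solvent and 1.41 to 5.53 CPM in DNCB. In the B cell identity list edgeR called 11 of 15 genes lower and 0 higher. Of all genes tested, 1.20% were called lower and 4.85% higher. The median change of the list was -2.11 against -0.31 over all genes tested. Ighm and Ighg2b were called in all 12 fits that left out 1 library. Igha was not called without Solvent replicate 2 or DNCB replicate 3 (adjusted p up to 0.0825), Cd79a not without Solvent replicate 1, DNCB replicate 1 or DNCB replicate 3 (up to 0.0874), and Igkc not without Solvent replicates 1 or 2 or DNCB replicates 1 or 3 (up to 0.0894). Jchain was called in 4 of the 12 fits, those without Solvent replicate 3, DNCB replicate 1 or scivMSC replicates 1 or 2, and reached an adjusted p of 0.189.

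Between scMSC and DNCB, Igha rose by 2.05 (SE 0.462, adjusted p = 0.0131), Ighg2b by 1.95 (adjusted p = 0.0162) and Jchain by 1.79 (adjusted p = 0.0353). Igkc had 1.40 (adjusted p = 0.0670) and Ighg1 1.26 (adjusted p = 0.148). Though not called, Ighg1 was at 11.2, 8.66 and 9.16 CPM in scMSC, above every other library. In scivMSC it was at 3.35 to 4.19 CPM. Ighm was at -0.13 (SE 0.363, adjusted p = 0.912) and Cd79a at -0.41 (adjusted p = 0.709). Of the 15 B cell identity genes 0 were called by edgeR in either direction, where 6.86% of all genes were called lower and 0.334% higher. Their median was -0.32 against -0.48 over all genes. Of the 3 rises, Igha was lost without DNCB replicate 2 or scMSC replicate 1 (adjusted p up to 0.0844), Ighg2b without DNCB or scMSC replicates 1 or 3 (up to 0.0767), and Jchain without DNCB replicates 2 or 3 or any 1 scMSC library (up to 0.187). Under TMM scaling both Ighm and Cd79a turned to small positive values, 0.40 and 0.16.

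Between scivMSC and scMSC, Igha fell by 2.05 (adjusted p = 0.0212), Jchain by 1.97 (adjusted p = 0.0255) and Igkc by 1.77 (adjusted p = 0.0255). Under TMM scaling these 3 were not called, at -1.07, -0.97 and -0.80, nor were they without scMSC replicates 1 or 3 or scivMSC replicates 2 or 3 (adjusted p up to 0.107). Between scivMSC and DNCB, Igha means were 22.8 ± 7.35 and 22.9 ± 10.7 CPM (SD, n = 3), whereas Ighm fell by 1.28 (adjusted p = 0.0124, and 0.0872 without DNCB replicate 2) and 12 of the 15 B cell identity genes were called lower, where 38.4% of all genes tested were. Under TMM scaling 1 of the 15 was called lower and 1 higher, with a median of -0.20, where 11.2% of all genes were called lower and 9.42% higher. Under that scaling Igha was higher in scivMSC by 1.49 and Ighm by 0.29, so neither direction held across scalings.

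The single members were sparse. Their summed counts ran from 56 to 1017, with a median of 164 over all 12 libraries, about 41 fragments. Each group's values are therefore given before any change. The 12 members with the highest mean FPKM held 51.0% of all member counts.

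**Figure D2:**
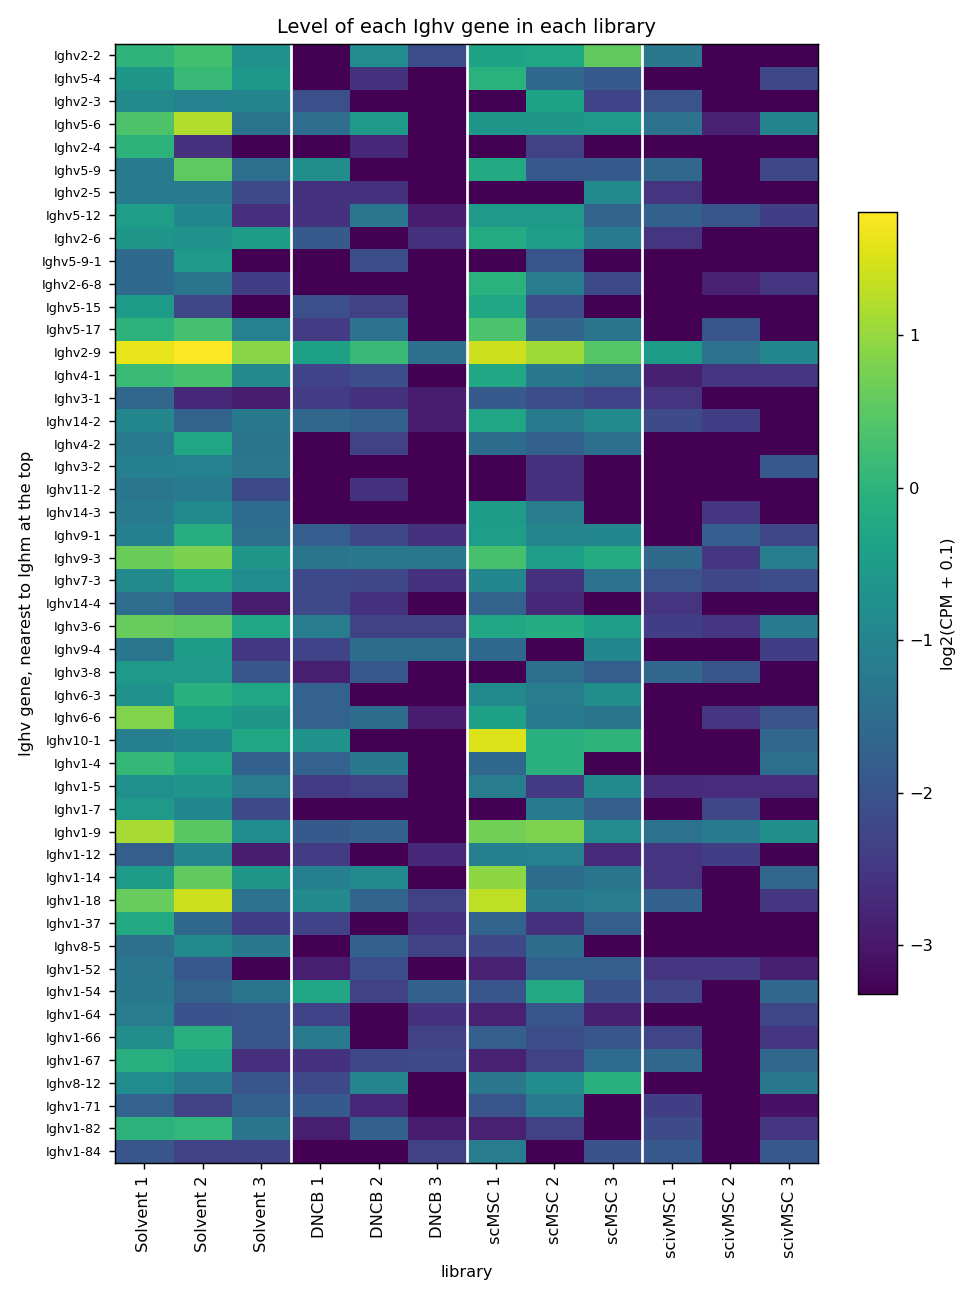
Level of each of the 49 Ighv genes (rows, nearest to Ighm at the top) in each library (columns), as log2(CPM + 0.1). Bright cells recur in the row of Ighv2-9 in Solvent and scMSC, and the darkest columns are DNCB 3 and scivMSC 2, with 27 and 30 members at 0 counts.

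Ighv2-9 (chromosome 12, 113879096 to 113879541) was the leading member, with 1017 counts, 9.96% of the whole, and a mean of 3.70 FPKM. It had 185, 209 and 114 counts in Solvent, 38, 60 and 16 in DNCB, 133, 120 and 72 in scMSC, and 32, 15 and 23 in scivMSC. Solvent and scMSC overlapped, and both were above every DNCB and scivMSC library. It was 1 of 4 members detected in every library.

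Ighv1-9 (114583569 to 114584002) had 131, 81 and 30 counts in Solvent and 10, 12 and 0 in DNCB. It had 80, 99 and 26 in scMSC and 15, 18 and 26 in scivMSC, so that all 3 scivMSC libraries lay above the DNCB ones. Its change between DNCB and Solvent was -3.35 (SE 0.999, adjusted p = 0.0604) and between scMSC and DNCB 3.27 (SE 0.996, adjusted p = 0.0593). Both missed the threshold in edgeR.

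Ighv1-18 (114682632 to 114683065) had 90, 158 and 18 counts in Solvent, 26, 13 and 6 in DNCB, 124, 19 and 20 in scMSC, and 11, 0 and 4 in scivMSC. Ighv9-3 (114140692 to 114141122) had 93, 101 and 36 in Solvent, 17, 19 and 19 in DNCB, 60, 37 and 46 in scMSC, and 13, 4 and 19 in scivMSC. For Ighv9-3 the Solvent and scMSC libraries all exceeded the DNCB and scivMSC ones. For Ighv1-18 the Solvent, DNCB and scMSC libraries overlapped, and a single mouse held most of the scMSC counts.

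Ighv10-1 (114479005 to 114479451) was highest in scMSC. It had 23, 26 and 48 counts in Solvent, 30, 0 and 0 in DNCB, 147, 51 and 52 in scMSC, and 0, 0 and 12 in scivMSC. Every scMSC library was above every other library, and replicate 1 alone held 147 of its 389 counts. Its changes were 3.14 between scMSC and DNCB (SE 1.51, adjusted p = 0.262) and 1.58 between scMSC and Solvent (SE 1.41, adjusted p = 0.506), so neither was called. Both changes of Ighv10-1 rest on few libraries: without DNCB replicate 1, which held all 30 DNCB counts, the gene was called between scMSC and DNCB (adjusted p = 0.0310), and without scMSC replicate 1 that change was 2.35 (adjusted p = 0.552).

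Ighv1-54 (115193675 to 115194134) was level between the first 3 groups. It had 20, 13 and 19 counts in Solvent, 41, 6 and 12 in DNCB, 8, 45 and 8 in scMSC, and 6, 0 and 12 in scivMSC. Between DNCB and Solvent its change was 0.29 (SE 1.25, adjusted p = 0.931), the only fitted value above 0 among the 49. In DNCB and in scMSC a single mouse held most of the counts.

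Most of the remaining leading members had changes of the same sign as Ighv2-9. Ighv5-6, Ighv3-6, Ighv2-2, Ighv1-14, Ighv6-6, Ighv5-17 and Ighv1-4 had fitted changes of -1.64 to -2.66 between DNCB and Solvent and 1.02 to 2.23 between scMSC and DNCB. None of these 7 was called in either comparison. The scMSC counts of Ighv1-14 were 95, 15 and 17 and those of Ighv1-4 were 12, 51 and 0. Without scMSC replicate 1 the change of Ighv1-14 between scMSC and DNCB went from 1.56 to 0.045, and without scMSC replicate 2 that of Ighv1-4 went from 1.04 to -0.61. Ighv3-6 came nearest, with 90, 83 and 46 counts in Solvent against 20, 6 and 6 in DNCB (adjusted p = 0.0783), followed by Ighv6-6 (adjusted p = 0.204).

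Between DNCB and Solvent, 48 of 49 members had a negative fitted change, with a median of -2.37, or -2.15 when the 4 members with no DNCB count were set at their bound, against -0.31 over all genes. Only Ighv2-9 was called, with a fall of 2.06 (SE 0.586, adjusted p = 0.0476), which makes 2.04% of members, where 1.20% of all genes tested were called lower and 4.85% higher. A share this near the background is not a result about the members. The call rested on a narrow margin: it was lost when any 1 library other than scivMSC replicate 1 or 2 was left out, with an adjusted p of up to 0.185. The count was 7 without scivMSC replicate 1 and 5 without scivMSC replicate 2, where 582 and 600 of all genes tested were called lower, against 190 with all libraries. At an unadjusted p under 0.05 stood 16 members. The share of all genes at that p was not taken, here or in the comparisons below. Such counts are therefore not read as a result about the members. The member rule sums counts over all libraries, so it favours members high in Solvent. How far it shaped the negative signs here was not tested.

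Of the 24 members that reached 1 FPKM in at least 3 libraries, 10 were called lower when genes were filtered in that way, where 4.87% of the 5527 genes kept were called lower and 15.6% higher. No support is taken from that count, since 16 of the 24 passed without any DNCB or scivMSC library. Detected in no DNCB library were 5 of the 49. Of these, Ighv1-7, Ighv14-3, Ighv3-2 and Ighv2-6-8, named here after their values were seen, had no count at all and lay below Solvent by factors of at least 5.46, 4.99, 5.14 and 3.04, at a floor of 12 counts over the group. None of these 4 passed the test.

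Between scMSC and DNCB, 48 of 49 members had a positive fitted change, with a median of 1.63 against -0.48 over all genes. Ighv2-6-8 was called, the only 1 (113796138 to 113796567), with 0 counts in all DNCB libraries and 45, 21 and 7 in scMSC (adjusted p = 0.0318). It was at least 6.38-fold higher in scMSC, and it had 15, 18 and 6 counts in Solvent and 0, 2 and 4 in scivMSC. The call makes 2.04% of members, where 0.334% of all genes were called higher and 6.86% lower. It was lost without Solvent replicate 2 and without any 1 of the DNCB or scMSC libraries, with an adjusted p of up to 0.127. The count rose to 3 without scivMSC replicate 1 or 2, where 91 of all genes tested were called higher in either fit. It was 2 without DNCB replicate 1, where 27 were, against 53 with all libraries.

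Between scivMSC and DNCB, 35 of 49 members had a negative fitted change, with a median of -0.71 against -1.46 over all genes. By edgeR 0 members were called and 4 had an unadjusted p under 0.05, where 38.4% of all genes were called lower and 0.826% higher. DESeq2, with its own size factors, called 2 members higher, where 11.7% of all genes were called lower and 12.0% higher. Without scivMSC replicate 1 edgeR called 1 member higher and 2 lower, where 103 of all genes tested were called higher and 8153 lower. It called 1 lower without scivMSC replicate 3, scMSC replicate 3 or any 1 DNCB library, where 4114 to 5883 genes were called lower. Under TMM scaling the median of all genes moved to -0.08 and that of the members to 0.75, with 34 of 49 positive, so the direction turned with the scaling. For Ighv2-9 the change was -0.57 (adjusted p = 0.456), and 0.92 with TMM.

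Between scMSC and Solvent, 36 of 49 members had a negative fitted change, with a median of -0.67 against -0.77 over all genes. By edgeR 0 were called and 1 had an unadjusted p under 0.05, while DESeq2 called 0. Across all genes 0.0252% were called higher and 0% lower. With TMM the members' median was -0.02. Ighv2-9 had -0.48 (SE 0.561, adjusted p = 0.616).

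Between scivMSC and Solvent, all 49 members had a negative fitted change, with a median of -2.84, or -2.50 with 8 members at their bound, against -1.80 over all genes. Of these, 14 were called lower, 28.6% of members, where 46.6% of all genes tested were called lower and 1.51% higher. The share of members called was thus below the background. Of the 14, Ighv11-2, Ighv1-37, Ighv8-5 and Ighv4-2 reached 48 counts only with Solvent included. Solvent held 48 of 56, 68 of 104, 65 of 104 and 84 of 130 of their counts. No support is taken from those calls. How far the member rule shaped the 49 negative signs was not tested. Ighv2-9 fell by 2.63 (SE 0.603, adjusted p = 0.00281).

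The most negative fitted values among the calls, which for genes at 0 depend on the prior count, were those of Ighv6-3 (114391712 to 114392169), Ighv4-2 (114013144 to 114013606) and Ighv1-37 (114896238 to 114896671), all with 0 counts in the 3 scivMSC libraries. Ighv6-3 had 32, 53 and 46 counts in Solvent and was at least 9.28-fold lower in scivMSC (adjusted p = 0.00493). The pseudogene Ighv4-2 had 21, 44 and 19 and was at least 5.95-fold lower (adjusted p = 0.00941). Ighv1-37 had 48, 14 and 6 and was at least 4.82-fold lower (adjusted p = 0.0127), a call lost without Solvent replicate 1 (adjusted p = 0.0527). These 3 bounds give no order against members with scivMSC counts. Ighv2-6, for example, named after its values were seen, had 4 scivMSC counts in all against 106 in Solvent, a ratio of 22.5 with a counting interval of 3.78 to 939. Without Solvent replicate 1 or 2 the number of members called was 9, where 5091 and 6756 of all genes tested were called lower. With TMM scaling 2 members were called lower, where 8.5% of all genes were called lower and 12.0% higher. The members' median was then -1.25 against -0.28 over all genes.

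Between scivMSC and scMSC, 46 of 49 members had a negative fitted change, with a median of -2.34, or -2.16 with 5 members at their bound, against -0.95 over all genes. Of these, 3 were called lower, 6.12% of members, where 12.7% of all genes were called lower and 0.151% higher. Ighv2-9 fell by 2.15 (SE 0.594, adjusted p = 0.0327). Ighv6-3, with 23, 21 and 28 counts in scMSC, was at least 5.72-fold lower (adjusted p = 0.0305), and Ighv4-2, with 13, 12 and 15, at least 3.18-fold lower (adjusted p = 0.0464). Without scivMSC replicate 2, replicate 3 or any 1 scMSC library, 0 members were called, and the same held with Solvent replicate 2 left out. With DNCB replicate 1 left out 1 member was called, where 1062 of all genes tested were called lower. Without scivMSC replicate 1 the number was 6, where 5769 genes were called lower.

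**Figure D3:**
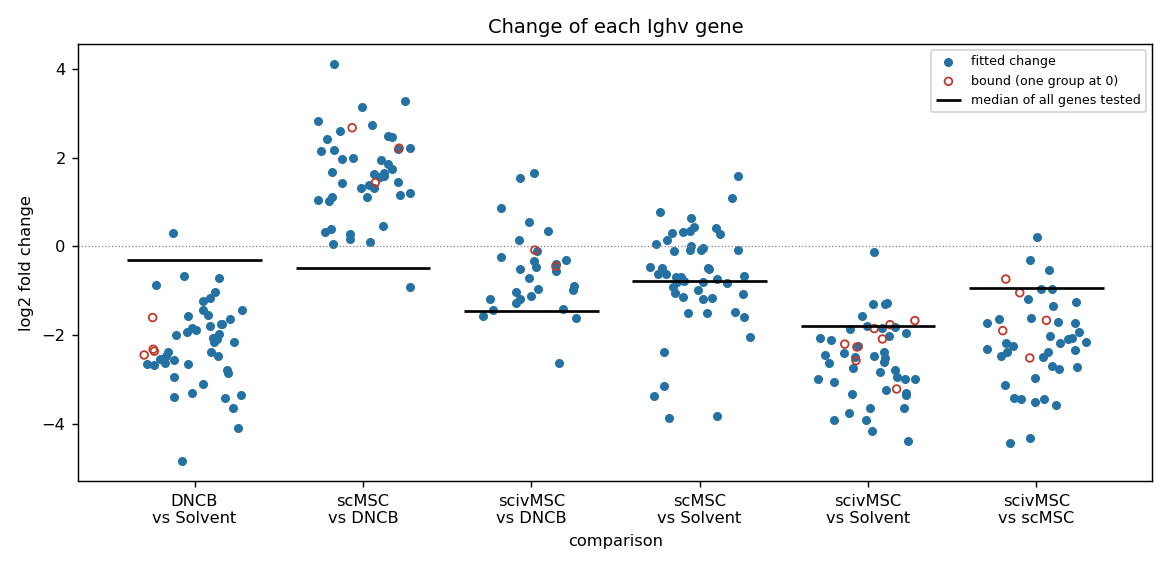
Log2 fold change of each Ighv gene in 6 comparisons (filled: fitted change; open: bound for genes with 0 counts in one group, at a floor of 12 counts over the group; genes at or under the floor in both groups are left out), with the median of all 15851 genes tested as a bar. Members lie mostly below that bar where DNCB or scivMSC is set against Solvent or scMSC, and above it in scMSC against DNCB.

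Fewer members were seen where the summed level was low. At 4 counts or more, 49, 48 and 42 of 49 were detected in Solvent, 34, 33 and 16 in DNCB, 37, 45 and 36 in scMSC, and 26, 16 and 26 in scivMSC. All 3 libraries of a group held 42 members in Solvent, 28 in scMSC, 9 in DNCB and 6 in scivMSC. In no library of the group were 9 members detected in scivMSC and 5 in DNCB.

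Detection depends on the number of Ighv fragments, which ran from about 30 in scivMSC replicate 2 to 546 in Solvent replicate 2. When every library was brought to 33 fragments by exact rarefaction, with each member's counts divided by 4 and rounded to the nearest whole number, the expected number of members was 21.9, 21.1 and 21.4 in Solvent, 20.9, 20.3 and 19.6 in DNCB, 19.2, 20.8 and 20.4 in scMSC, and 20.5, 19.0 and 19.7 in scivMSC. The range was 19.0 to 21.9. Rounding turned 2 or 3 counts into a fragment, so scivMSC replicate 2 had 33 fragments and 19 members by this rule, and was not thinned.

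Rounding down instead, a choice made after seeing the data, asks for 4 counts as the detection above does and leaves scivMSC replicate 2 with 25 fragments. At 25 fragments the expected number was 17.9, 17.3 and 17.3 in Solvent, 16.7, 16.3 and 15.2 in DNCB, 15.8, 17.0 and 16.5 in scMSC, and 16.8, 16.0 and 16.4 in scivMSC. By either rule every Solvent library was above every other library, and DNCB, scMSC and scivMSC overlapped. The member rule sums counts over all libraries, so it favours members high in Solvent, the group with the most Ighv counts. For example, Ighv2-4 had 60 of its 69 counts there, Ighv11-2 48 of 56 and Ighv3-2 66 of 79. How far this raised the Solvent numbers, with or without rarefaction, was not tested. With 25 fragments no library can show more than 25 members.

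The effective number of members, the exponential of the Shannon entropy of their shares, would equal 49 if all were alike. It was 38.0, 35.0 and 33.1 in Solvent, 28.0, 26.3 and 17.3 in DNCB, 27.3, 32.1 and 28.9 in scMSC, and 22.9, 15.9 and 23.2 in scivMSC. Solvent was above every other library, with the same limit from the member rule. This measure also falls with the number of fragments, and the 2 libraries with the fewest, scivMSC replicate 2 and DNCB replicate 3, gave the lowest values.

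**Figure D4:**
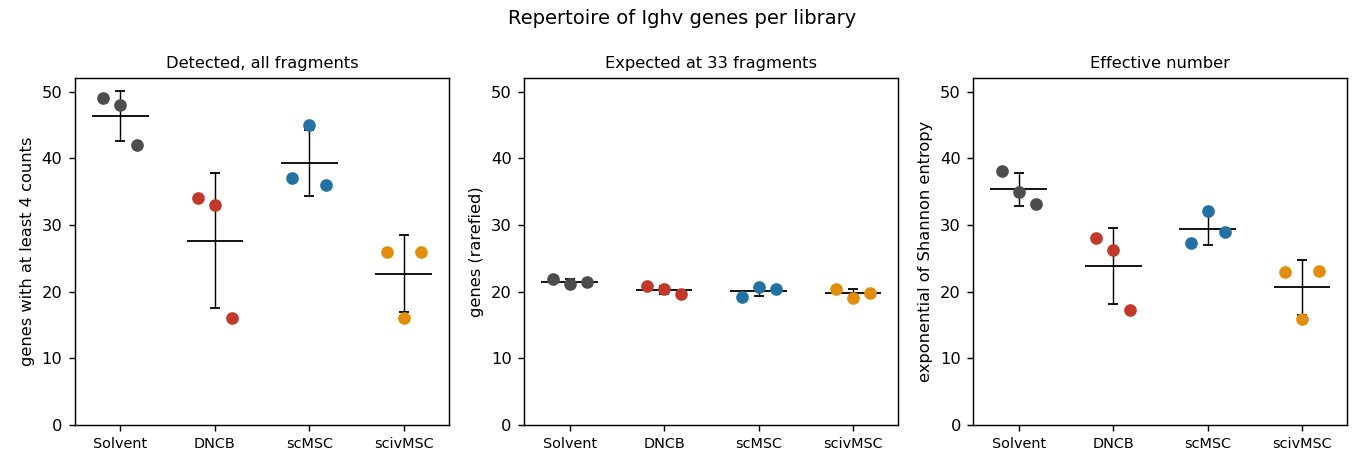
Members detected at 4 counts or more, members expected at 33 fragments, and effective number of members in each library, with group mean (line) and SD (bar, n = 3). With all fragments the libraries run from 16 to 49 members, with Solvent overlapping scMSC and DNCB overlapping scivMSC, and at 33 fragments they run from 19.0 to 21.9.

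In no library did one member take over. The leading one held between 9.06% and 15.0% of Ighv counts, and the 5 leading ones between 29.6% and 50.0%. Ighv2-9 led in all Solvent libraries, in DNCB 2, scMSC 2 and scivMSC 1. Ighv1-54 led in DNCB 1, Ighv9-3 in DNCB 3, Ighv10-1 in scMSC 1, Ighv2-2 in scMSC 3, and Ighv1-9 in scivMSC 2 and 3.

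The name of the leading member thus varied outside Solvent, by small margins. Where another member led, Ighv2-9 had 38 counts against 41 in DNCB 1, 16 against 19 in DNCB 3 and 133 against 147 in scMSC 1. It had 72 against 78 in scMSC 3, 15 against 18 in scivMSC 2 and 23 against 26 in scivMSC 3. About 4 counts stand for 1 fragment, so no leading member particular to a mouse is read from these leads. For scMSC replicate 1, Ighv10-1 made up 10.2% of counts, with a 95% Wilson interval of 7.55% to 13.8%. The 15.0% of Ighv1-9 in scivMSC replicate 2 stood on 18 counts, with an interval of 7.34% to 33.6%. Without the leading member of each library, the ratio of DNCB to Solvent was -2.28 on the log2 scale, in place of -2.25.

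Libraries shared more of their Ighv make-up where fragments were many. The Bray-Curtis similarity of member shares, which is 1 for identical libraries, had a median of 0.735 between Solvent mice and 0.644 between scMSC mice. It was 0.515 between DNCB mice and 0.466 between scivMSC mice. Between Solvent and scMSC libraries the median was 0.679, above that within scMSC, so that the scMSC libraries were no closer to each other than to Solvent. Pairs of libraries are not independent, and similarity falls with the number of fragments.

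By family, Ighv1 was largest, with 16 members and 29.7% of counts, followed by Ighv2 with 7 members and 19.8% and Ighv5 with 7 members and 14.6%. Ighv1 held 22.5% to 32.7% in Solvent libraries, 25.1% to 38.1% in DNCB, 20.2% to 31.4% in scMSC and a mean of 34.8% ± 4.55 (SD, n = 3) in scivMSC. Ighv2 held 17.1% to 23.5% in Solvent, 13.5% to 21.1% in DNCB, 17.7% to 25.3% in scMSC and 9.68% to 26.6% in scivMSC. Ighv5 held 10.4% to 19.2% in Solvent, 1.43% to 19.5% in DNCB, 10.0% to 16.9% in scMSC and 13.6% to 15.6% in scivMSC. Its 1.43% was that of DNCB replicate 3, from 2 counts. These ranges overlapped between groups, so the lower sums in DNCB and scivMSC were spread over the large families.

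Smaller families varied as well. Ighv9 held 27.1% of DNCB replicate 3, from 38 counts, and between 5.33% and 11.7% elsewhere. Ighv10, whose one member is Ighv10-1, held 4.70% to 10.2% in scMSC and 1.13% to 4.96% in Solvent. It held 6.76% in DNCB replicate 1, inside the scMSC range, 4.30% in scivMSC replicate 3 and 0% in the other DNCB and scivMSC libraries. Ighv4 held 4.16% to 5.22% in Solvent and 2.85% to 3.67% in scMSC, against 0% to 3.14% in DNCB and 0.820% to 3.33% in scivMSC. A family at 0 in a library of this depth was not detectable there, not shown to be absent.

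**Figure D5:**
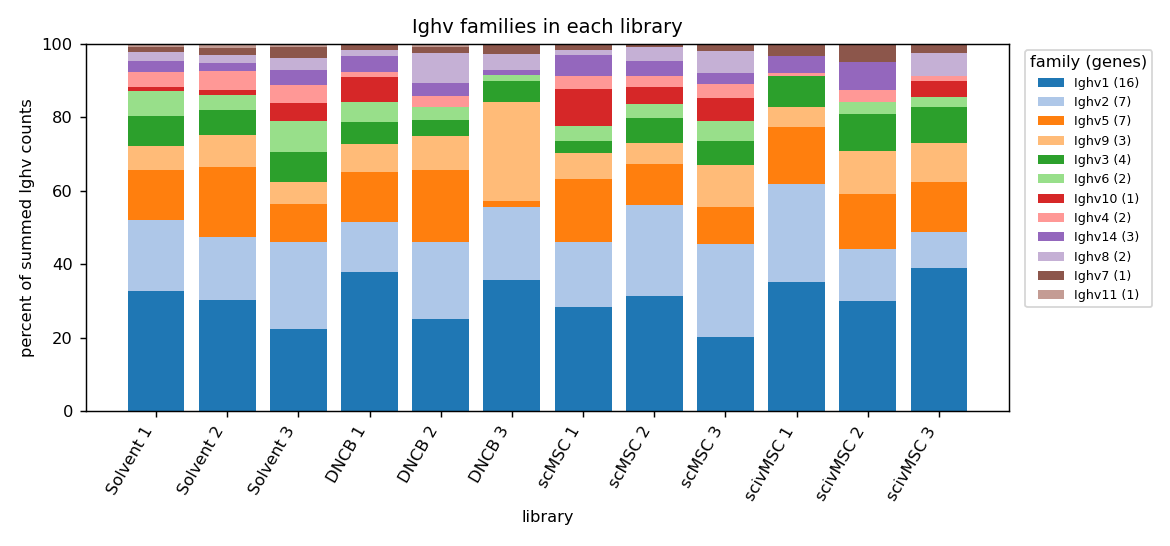
Share of each Ighv family in the summed Ighv counts of each library, in percent, with the number of member genes in brackets. Ighv1, Ighv2 and Ighv5 make up the larger part of nearly all bars, and DNCB 3 differs by its Ighv9 share of 27.1% and its Ighv5 share of 1.43%.

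Position along the locus did not set the groups apart. The 25 members nearest to Ighm, up to 754 kb from it, held 50.1% to 54.8% of counts in Solvent, 41.9% to 56.5% in DNCB, 50.3% to 53.3% in scMSC and 39.4% to 57.8% in scivMSC. The widest ranges belonged to the groups with the fewest fragments.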

How the data were processed

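Blood RNA was sequenced in 12 libraries, taken as 1 per mouse. The authors deposited 1 table with 24 value columns: for each library, estimated counts and FPKM values per gene. Per the submitters' processing notes, tools included Bowtie 0.12.2, HISAT2 2.0 and StringTie 1.3.0, and mm8 was named as the build. The deposited coordinates of 49 of 49 members lay within 50 bases of GRCm38 at one end or both (35 with the same start), and GRCm38.p6 is therefore the build used here. The annotation, counting and strand settings are not given in the sources used here, and antisense reads could not be told apart. The deposited estimated counts are whole numbers, of which about 4 stand for 1 fragment. The deposited FPKM values include haemoglobin in the total.

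Counts were scaled by library total and fitted with edgeR 4.0.16 (quasi-likelihood, R 4.3.3) over the 15851 genes with at least 48 summed counts, with all 12 libraries and 4 group means. A gene was called at a Benjamini-Hochberg adjusted p under 0.05 and a fold change over 2. P-values measure the spread between mice. The fit was also run on simulated counts in which a small share of genes changed, in DNCB only. Those counts lacked the steps of about 4 and the wide shifts of these data. No support for the calls here is taken from that run. Alternatives were TMM, totals without haemoglobin, DESeq2 1.42.0, limma 3.58.1 on log2(FPKM + 1) and log2(FPKM + 0.1), other filters, counts divided by 4, and each library left out. A group at 0 was given a floor of 12 counts (3 fragments).

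Members named are the 12 with the highest mean FPKM, the leading one of each library, and up to 3 called members with the largest change per comparison and direction. Members named otherwise were chosen after their values were seen. Genes outside the members come from lists of antibody genes and cell types, or were named by their likeness to the summed Ighv level. The B cell identity and plasma cell lists are described by sums, counts called and medians. Neutrophil, T cell and V(D)J genes are given as sums alone. Some antibody genes are given singly, and the other lists are not shown. Members and lists were chosen with earlier results of these data known. No sequences are shown, and promoter motifs were not analysed here.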

Additional observations from a re-analysis of the deposited data

How the results depend on the processing

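Leaving out 1 library moved the number of Ighv members called from 0 to 7 for DNCB vs Solvent, 0 to 3 for scMSC vs DNCB, 0 to 3 for scivMSC vs DNCB, 9 to 18 for scivMSC vs Solvent and 0 to 6 for scivMSC vs scMSC, and gave 0 throughout for scMSC vs Solvent. Calls over all 15851 genes moved too. For DNCB vs Solvent, 582 genes were called lower in the fit with 7 members, against 190 with all libraries. For scivMSC vs Solvent, 7034 were called lower in the fit with 18 members, against 7385 with all libraries. In the order DNCB vs Solvent, scMSC vs DNCB, scivMSC vs DNCB, scMSC vs Solvent, scivMSC vs Solvent and scivMSC vs scMSC, the counts were 4, 3, 2, 0, 2 and 0 with TMM, 14, 11, 2, 0, 5 and 3 with DESeq2, and 7, 3, 0, 0, 12 and 4 with totals that left out haemoglobin. They were 10, 6, 1, 0, 16 and 11 with the FPKM filter, 1, 2, 0, 0, 15 and 6 without a filter, and 5, 2, 0, 0, 22 and 6 for counts divided by 4. With limma they were 12, 7, 0, 1, 17 and 2 at a pseudocount of 1 and 19, 10, 0, 1, 33 and 18 at 0.1, and with the 6 libraries of each comparison alone 10, 5, 0, 0, 8 and 0. Replicate numbers did not pair the mice (same-number correlations of -0.275 to 0.212), and with the replicate block the counts were 2, 1, 0, 0, 13 and 4. In these 10 alternatives members were called in 1 direction only for each comparison (lower, or higher for scMSC vs DNCB), except for scivMSC vs DNCB, with 2 higher under TMM and DESeq2 and 1 lower under the FPKM filter. The share of all genes called is given in percent, in the same order of settings from TMM to the replicate block. It was 4.12, 6.11, 6.19, 4.87, 1.26, 3.22, 1.17, 4.3, 5.73 and 1.25 lower for DNCB vs Solvent. For scMSC vs DNCB it was 2.77, 4.38, 1.58, 1.27, 0.253, 0.454, 0.297, 0.726, 1.06 and 0.322 higher. For scivMSC vs Solvent it was 8.5, 9.22, 39.4, 59.2, 28.2, 51.3, 10.8, 48.9, 29.8 and 46.0 lower. For scivMSC vs scMSC it was 3.01, 4.35, 18.2, 30.4, 8.68, 16.1, 0.132, 14.6, 0.0189 and 15.8 lower. For scivMSC vs DNCB it was 9.42% higher and 11.2% lower with TMM, and 12.0% and 11.7% with DESeq2. With the FPKM filter, which kept 24 members, it was 1.43% higher and 62.0% lower. For scMSC vs Solvent it was 0.568% and 0.24% lower with limma at pseudocounts of 1 and 0.1. The cause of these shifts was not tested.

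The log2 ratio of summed levels kept its sign in every fit without 1 library, from -2.55 to -1.87 for DNCB vs Solvent, 1.41 to 2.03 for scMSC vs DNCB, -0.92 to -0.26 for scivMSC vs DNCB, -0.77 to -0.24 for scMSC vs Solvent, -3.09 to -2.51 for scivMSC vs Solvent and -2.57 to -2.03 for scivMSC vs scMSC. With TMM it was 0.95 for scivMSC vs DNCB, 0.17 for scMSC vs Solvent, -1.20 for scivMSC vs Solvent and -1.37 for scivMSC vs scMSC. Without haemoglobin in the totals it was 0.038 for scivMSC vs DNCB. With all counts it was -0.55 for scivMSC vs DNCB and -0.46 for scMSC vs Solvent, so these signs turned with the scaling. Per count of the B cell genes it was -0.25, 0.83, 1.69, 0.58 and -1.11 for DNCB vs Solvent, scivMSC vs DNCB, scMSC vs Solvent, scivMSC vs Solvent and scivMSC vs scMSC. All 95 Ighv genes, an alternative chosen after seeing the data, gave -2.20 for DNCB vs Solvent.

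Mean members detected without 1 library ran from 45.0 to 48.5 in Solvent, 24.5 to 33.5 in DNCB, 36.5 to 41.0 in scMSC and 21.0 to 26.0 in scivMSC, and effective numbers from 34.0 to 36.5, 21.8 to 27.1, 28.1 to 30.5 and 19.4 to 23.0. At 12 counts or more the means were 39.3, 11.3, 28.3 and 7.00. Rarefied means were 21.5 in Solvent and 20.1 in scMSC, rounded-down ones 17.5, 16.1, 16.4 and 16.4, and inverse Simpson indices 27.3 and 22.5.

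Signs that turned were those of Igha between scivMSC and DNCB (1.49 with TMM, 1.60 with DESeq2, 0.58 without haemoglobin, 0.062 and 0.082 with limma at pseudocounts of 1 and 0.1, 0.17 with the replicate block), Ighm between scivMSC and DNCB (0.29 with TMM, 0.40 with DESeq2), Ighm between scMSC and DNCB (0.40, 0.42, and 0.28 without haemoglobin), Cd79a between scMSC and DNCB (0.16, 0.18 and 0.025) and Ighv2-9, at 0.92, 1.02 and 0.022 for scivMSC vs DNCB and 0.16 with TMM and 0.19 with DESeq2 for scMSC vs Solvent. Without 1 library the ranges that crossed 0 were -0.35 to 0.24 for Igha between scivMSC and DNCB, and for scMSC vs DNCB -0.64 to 0.14 for Cd79a, -0.32 to 0.26 for Ighm and -0.61 to 1.79 for Ighv1-4. Single members hold few fragments per library, which limits the precision of their values.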
